A study of Rattus norvegicus with 30 samples.

Results

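Carboxylesterases and arylacetamide deacetylase are liver enzymes that split esters and amides, and their transcripts were followed in rat hepatocytes given chlorpromazine. The members were chosen by name and with the 20 µM results of these data already known: every probe set whose platform symbol was Ces1c, Ces1d, Ces1e, Ces1f, Ces2a, Ces2c, Ces2e or Aadac. Of these 8 names, 5 had a probe set of their own, and these 5 genes had 6 probe sets of the 31042 on the array without controls. The array named 14217 genes in all by a single symbol. A filter on dim signals left 21226 probe sets, 5 of them members, 1 for each gene. The sixth, a second probe set of Ces1c, was above the 40th percentile of its array on 0 of 30 arrays and was left out by the filter. For Ces2a and Ces2e no probe set was listed under those symbols, and Ces1f was listed on a probe set shared with Cesl1, which is described apart and counted with neither gene.

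The cells were primary hepatocytes of male Sprague Dawley rats, thawed from frozen stock, plated on collagen and covered with a basement membrane gel. On day 3 of culture they received chlorpromazine hydrochloride at 0.8 or 20 µM, or the vehicle dimethyl sulfoxide at 1%, and RNA was taken 24 or 48 h later. Chlorpromazine is an antipsychotic of the phenothiazine class that can cause cholestasis in patients. Each of the 6 combinations of dose and time had 5 wells and 5 arrays, which gave 30 arrays. The dosing solutions of all groups are described as made in dimethyl sulfoxide, so the solvent is shared by the treated and vehicle cells. The wells are named as independent cultures, without separate animals. The p-values therefore reflect spread between wells, their labelling and arrays included, and not spread between animals. The study asked how hepatocyte transcripts respond to dose and time.

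Carboxylesterases are serine hydrolases, most of them held inside the endoplasmic reticulum of hepatocytes, where they cleave ester drugs, prodrugs and lipid esters to an acid and an alcohol. Enzymes of the first subfamily prefer a large acyl group and a small alcohol, and enzymes of the second prefer the reverse. Arylacetamide deacetylase sits in the same membrane and removes acetyl groups from aromatic amides.

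The array medians lay between 379.8 and 448.8 on the linear signal scale, and arrays of a group correlated at 0.950 to 0.963 on average over the tested probe sets. The ratios of 3′ to 5′ signal, a measure of RNA quality, were 2.09 to 2.73 for beta-actin and 1.11 to 1.20 for GAPDH, with ranges that overlapped between all groups. The summed signal of 9 hepatocyte markers, albumin and transthyretin among them, overlapped between all groups (594000 to 909600). At 20 µM 0 of the 9 were past an adjusted p of 0.05 in limma at 24 h, with 1 at an unadjusted p under 0.05 (Cps1). At 48 h 1 was lower (Fgb, -0.25 log2), and 2 had an unadjusted p under 0.05 (Fgb and Cps1). The median log2 difference of the 9 was -0.07 at 24 h and -0.08 at 48 h. Of all 11503 named genes tested, 9.93% were lower at 24 h and 14.2% at 48 h. In vehicle 2 of the 9 markers were lower at 48 than at 24 h (Hnf4a, -0.40, and Fgb, -0.29) and 0 higher. Of all named genes 5.77% were lower and 5.76% higher in that comparison. Vehicle replicate 2 at 24 h carries 2 h in its title but 24 h as its time, and the latter was used. Array numbers ran through the 6 groups in 1 order in each set of 6, so a place in the set and a treatment cannot be told apart. The number of arrays limits the precision.

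At 20 µM, 4 of the 5 member genes were lower than vehicle at 24 h and all 5 at 48 h, counting differences past an adjusted p of 0.05 in limma over all tested probe sets. Among all 21226 tested probe sets, 8.24% were lower by that rule at 24 h and 12.4% at 48 h. Treated and vehicle arrays were fully separate for 4 of 5 members at each time, against 6.25% of all probe sets at 24 h and 9.59% at 48 h on the lower side. For the 5 tested members, no mean was higher at the higher dose in any comparison with the drug. The difference of Ces2c at 0.8 µM and 48 h was only -0.0019 (log2). The second Ces1c probe set, left out by the filter, was higher at 0.8 µM than in vehicle (0.36 at 24 h and 0.13 at 48 h, each ± 0.43 SE). The median log2 difference of the members was -0.78 at 24 h and -1.31 at 48 h, against -0.01 and 0.01 for all tested probe sets. Because the members were proposed with this contrast known, these counts are a description and nothing is read from them. In these bulk samples fewer cells of a type and less RNA per cell cannot be told apart.

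**Figure D1:**
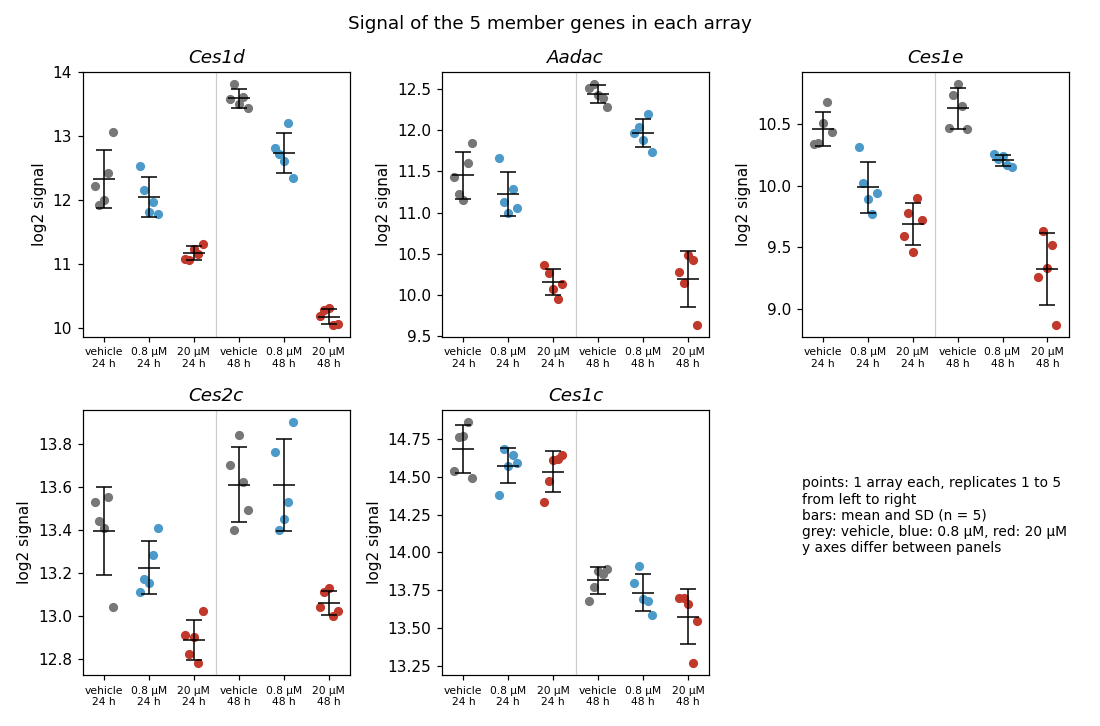
Log2 signal (y axis) of each member gene in each of the 30 arrays, by dose and time (x axis). Points are arrays and bars are the mean and SD (n = 5), with a separate y scale in each panel. Ces1d, Aadac, Ces1e and Ces2c have their highest group means in vehicle at 48 h (13.59, 12.43, 10.63 and 13.61). Ces1c has all 15 arrays of 24 h above all 15 arrays of 48 h.

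Ces1d codes for the enzyme known as triacylglycerol hydrolase, which in rodent liver takes part in mobilising stored triglyceride for lipoprotein secretion. Its promoter and those of Ces1c and Aadac are shown because Ces1d and Aadac had the largest differences at 20 µM and Ces1c, the neighbour of Ces1d, the smallest. Each is the RefSeq window of 250 bases before and 50 bases after the annotated start, 5′ to 3′ on the plus strand of GRCr8. Capitals mark matches to the motifs searched:
Ces1d (chr19:30046244-30046543): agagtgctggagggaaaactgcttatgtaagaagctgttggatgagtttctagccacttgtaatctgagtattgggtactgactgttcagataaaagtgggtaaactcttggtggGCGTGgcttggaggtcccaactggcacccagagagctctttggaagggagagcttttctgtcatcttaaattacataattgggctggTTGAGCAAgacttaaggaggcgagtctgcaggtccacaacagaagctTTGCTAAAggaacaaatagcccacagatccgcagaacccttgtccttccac
Ces1c (chr19:30099197-30099496): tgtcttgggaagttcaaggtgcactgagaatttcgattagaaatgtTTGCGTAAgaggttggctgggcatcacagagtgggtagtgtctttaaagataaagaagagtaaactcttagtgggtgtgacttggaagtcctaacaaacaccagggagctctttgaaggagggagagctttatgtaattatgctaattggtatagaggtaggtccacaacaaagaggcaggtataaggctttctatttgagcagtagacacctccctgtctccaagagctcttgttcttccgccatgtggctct
Aadac (chr2:146313029-146313328): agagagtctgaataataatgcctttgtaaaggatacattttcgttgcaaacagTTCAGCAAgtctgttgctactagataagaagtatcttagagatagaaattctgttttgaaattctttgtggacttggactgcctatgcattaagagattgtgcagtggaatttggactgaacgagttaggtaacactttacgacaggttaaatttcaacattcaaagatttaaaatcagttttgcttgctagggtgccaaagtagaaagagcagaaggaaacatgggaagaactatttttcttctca

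These windows were available for 7 of the 8 listed names, Ces2a being the exception. The 6 motifs were searched on both strands in 33469 windows. TTGCNNAA, the core bound by C/EBP factors, matched in Ces1d on the opposite strand 48 bases before the start. A second match in Ces1d, on its own strand, began 1 base before the start and ran past it. In Aadac the motif matched on the opposite strand 197 bases before the start, and in Ces1c on its own strand 204 bases before it. TTGCNNAA was held by 10.6% of all windows. GCGTG, the core of the aryl hydrocarbon receptor element, matched in Ces1d 135 bases before the start and was held by 29.7% of all windows. AGGTCA, a nuclear receptor half-site (16.2% of all windows), GTTAAT, an HNF1 half-site (7.45%), TGACNNNGC, the core of the antioxidant response element (12.1%), and TATAAA, the TATA box (14.2%), matched in none of the 7 windows. Ces1e and Ces2c held no match to any of the 6, and Ces2e held TTGCNNAA 156 bases before its start. The windows of Ces1d and Ces1c were identical at 67.2% of aligned bases, those of Ces1d and Aadac at 60.1% and those of Ces1d and Ces1e at 57.8%. Over all pairs of the 7 windows identity ran from 51.2% (Aadac and Ces1e) to 68.3% (Ces2c and Ces2e), with gaps left out of the aligned bases. Windows of other genes were not aligned, so these shares have no baseline and show no relatedness by themselves. A match is a description of letters and not of binding, and nothing follows from the lack of one.

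In vehicle at 24 h the log2 signal of Ces1d was 12.22, 11.93, 12, 12.43 and 13.06 in replicates 1 to 5, and at 20 µM it was 11.08, 11.06, 11.23, 11.15 and 11.32. All 5 treated arrays lay below all 5 vehicle arrays, and vehicle replicate 5 was the highest of its group. The means were 12.33 ± 0.45 and 11.17 ± 0.11 (SD, n = 5), a log2 difference of -1.16 ± 0.16 (SE), or 2.23-fold lower. At 48 h the vehicle arrays gave 13.58, 13.82, 13.51, 13.62 and 13.44 and the 20 µM arrays 10.19, 10.28, 10.31, 10.05 and 10.06. The groups stood far apart, with 3.13 log2 units between their nearest arrays. The difference was -3.41 ± 0.16 (SE), which is 10.7-fold lower and leaves 9.38% of the vehicle signal, and it ranked number 2 from the lowest among the 21226 probe sets.

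At 0.8 µM the arrays of Ces1d gave 12.54, 12.16, 11.82, 11.97 and 11.78 at 24 h and overlapped vehicle, with a log2 difference of -0.27 ± 0.16 (SE, limma adjusted p = 0.585). At 48 h they gave 12.81, 12.73, 12.61, 13.21 and 12.35, all below the vehicle arrays. That difference was -0.85 ± 0.16 (SE), or 1.81-fold lower, and passed the test (limma adjusted p = 0.00188, lower in 5 of 5 arrays). Its vehicle arrays are also those of the 20 µM comparison with which the members were proposed, so the test is not independent of that choice. Ces1d was the 1 member of 5 that was past the threshold at this dose and time, where 0.994% of all probe sets were lower. In order of their means the groups ran from 20 µM at 48 h through 20 µM at 24 h, 0.8 µM and vehicle at 24 h and 0.8 µM at 48 h to vehicle at 48 h. The arrays of 0.8 µM and vehicle at 24 h overlapped, as did those of vehicle at 24 h and 0.8 µM at 48 h, and the other neighbours in that order were separate.

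Ces1e lies beside Ces1d on chromosome 19 in the current RefSeq annotation and is the counterpart of mouse egasyn, which holds beta-glucuronidase in the endoplasmic reticulum. Its vehicle arrays at 24 h gave 10.34, 10.35, 10.51, 10.68 and 10.44 and its 20 µM arrays 9.59, 9.78, 9.46, 9.90 and 9.72, with no overlap. The mean log2 signals were 10.47 ± 0.14 and 9.69 ± 0.17 (SD, n = 5), a difference of -0.78 ± 0.12 (SE), or 1.71-fold lower. At 48 h vehicle gave 10.47, 10.74, 10.83, 10.65 and 10.46 and 20 µM gave 9.26, 9.63, 9.33, 9.52 and 8.87. All treated arrays were again below all vehicle arrays, with replicate 5 the lowest. The difference was -1.31 ± 0.12 (SE), which leaves 40.4% of the vehicle signal.

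The 0.8 µM arrays of Ces1e gave 10.32, 10.02, 9.89, 9.77 and 9.94 at 24 h and 10.26, 10.22, 10.24, 10.17 and 10.15 at 48 h. At both times every 0.8 µM array lay below every vehicle array of that time, although at 24 h the nearest arrays were only 0.03 log2 units apart. Neither difference passed the test over all probe sets: -0.48 ± 0.12 (SE, limma adjusted p = 0.0645) at 24 h and -0.42 ± 0.12 (limma adjusted p = 0.0572) at 48 h. Other settings moved both to either side of the threshold, with adjusted p from 0.0413 to 0.24 at 24 h and from 0.0346 to 0.0774 at 48 h. Without replicate 1 of 0.8 µM at 24 h the 24 h difference was -0.56 and was past the threshold (limma adjusted p = 0.0264). From 0.8 to 20 µM the means differed by -0.30 ± 0.12 (SE) at 24 h, which was not past the threshold, and by -0.89 ± 0.12 at 48 h, which was.

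Ces1c codes for a carboxylesterase that rodent liver secretes into plasma, and it lies on the other side of Ces1d. Vehicle at 24 h gave 14.54, 14.76, 14.77, 14.86 and 14.49 and 20 µM gave 14.33, 14.47, 14.61, 14.62 and 14.64, and the groups overlapped. Their log2 difference of -0.15 ± 0.08 (SE) was not past the threshold. At 48 h vehicle gave 13.68, 13.77, 13.88, 13.86 and 13.89 and 20 µM gave 13.70, 13.70, 13.66, 13.27 and 13.55. The groups overlapped here too, with 20 µM replicate 4 the lowest. The difference of -0.24 ± 0.08 (SE), or 1.18-fold lower, was past the threshold. It was no longer past it without vehicle replicate 3, 4 or 5 (-0.22, -0.23 and -0.22) or without 20 µM replicate 4 (-0.16).

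At 0.8 µM the Ces1c arrays ran from 14.38 to 14.68 at 24 h and from 13.59 to 13.91 at 48 h, within or across the vehicle range. Their differences from vehicle were -0.11 (limma adjusted p = 0.702) and -0.08 (limma adjusted p = 0.783), each ± 0.08 (SE). The second Ces1c probe set, never above the 40th percentile of an array and at a mean percentile of 23.2, ran from 5.02 to 7.66. With no filter its difference at 20 µM and 48 h was -0.59 ± 0.43 (SE), so it adds no measurement of the gene at this signal.

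The probe set shared by Ces1f, the next carboxylesterase gene beside Ces1e, and Cesl1 had log2 signals of 12.09, 12.31, 12.19, 12.14 and 12.11 in vehicle at 48 h and 11.68, 11.26, 11.30, 11.62 and 11.02 at 20 µM. The arrays did not overlap, and the difference was -0.79 ± 0.13 (SE), or 1.73-fold lower. At 24 h the difference of -0.30 ± 0.13 (SE) was not past the threshold. Signal here cannot be assigned to either gene, and near-identical copies within this gene cluster could share signal on the other Ces1 probe sets as well, which was not tested.

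Ces2c is a carboxylesterase of the second subfamily. Its vehicle arrays at 24 h gave 13.53, 13.44, 13.41, 13.55 and 13.04 and its 20 µM arrays 12.91, 12.82, 12.90, 12.78 and 13.02. The treated arrays were all lower, but vehicle replicate 5 stood apart from its group and only 0.02 above the nearest treated array. The mean log2 signals were 13.39 ± 0.21 and 12.89 ± 0.09 (SD, n = 5), a difference of -0.51 ± 0.09 (SE), and -0.60 without that replicate. At 48 h vehicle gave 13.70, 13.40, 13.84, 13.62 and 13.49 and 20 µM gave 13.04, 13.11, 13.13, 13 and 13.02, with no overlap. The difference of -0.55 ± 0.09 (SE), or 1.46-fold lower, was close to that at 24 h.

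At 0.8 µM the Ces2c arrays ran from 13.11 to 13.41 at 24 h and from 13.40 to 13.90 at 48 h, and both groups overlapped vehicle. The 24 h difference was -0.17 ± 0.09 (SE, limma adjusted p = 0.553). At 48 h both means were 13.61, and the 95% interval of the log2 difference was -0.19 to 0.18 (limma adjusted p = 0.997). In order of means from 20 µM at 24 h up to vehicle at 48 h, the arrays of every pair of neighbouring groups overlapped.

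Aadac codes for arylacetamide deacetylase and lies on chromosome 2 beside its relative Aadacl2, away from the carboxylesterase genes. Vehicle at 24 h gave 11.43, 11.23, 11.15, 11.60 and 11.84 and 20 µM gave 10.36, 10.27, 10.07, 9.95 and 10.14. The groups were separate by a wide margin. The mean log2 signals were 11.45 ± 0.28 and 10.16 ± 0.16 (SD, n = 5), a difference of -1.29 ± 0.14 (SE), or 2.45-fold lower. At 48 h vehicle gave 12.51, 12.56, 12.42, 12.39 and 12.28 and 20 µM gave 10.28, 10.15, 10.49, 10.43 and 9.64. Replicate 5 of 20 µM was the lowest, and all treated arrays were below all vehicle arrays. The difference was -2.23 ± 0.14 (SE), which is 4.70-fold lower, leaves 21.3% of the vehicle signal and ranked number 37 from the lowest among the 21226 probe sets.

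At 0.8 µM the Aadac arrays gave 11.66, 11.13, 11, 11.28 and 11.05 at 24 h, overlapping vehicle (log2 difference -0.22 ± 0.14 SE, limma adjusted p = 0.618). At 48 h they gave 11.96, 12.04, 11.88, 12.20 and 11.74, all below all vehicle arrays. That difference of -0.47 ± 0.14 (SE), or 1.38-fold lower, did not pass the test over all probe sets (limma adjusted p = 0.0732, and 0.0102 to 0.123 over the alternatives). The same replicate was the highest of its group for Ces1d and for Aadac in 5 of the 6 groups, the exception being 20 µM at 24 h, and the same replicate was the lowest for both in 2 of the 6.

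At 0.8 µM as a whole, 0 of 5 members were past the threshold at 24 h in limma, where 0.155% of all probe sets were lower, and 1 of 5, Ces1e, had an unadjusted p under 0.05. Over all tested probe sets 33 were lower and 27 higher at this dose and time, and 12 and 6 once arrays were centred. The members' median log2 difference was -0.22 at 24 h and -0.42 at 48 h, against 0.01 for all probe sets at each time. These comparisons share their vehicle arrays with those at 20 µM. Between 0.8 and 20 µM, 3 of 5 members were lower at the higher dose at 24 h (5.4% of all probe sets) and 4 of 5 at 48 h (9.87%). Over all probe sets this comparison gave 1147 lower and 1186 higher at 24 h, and 872 and 1404 with centred arrays. The 3 at 24 h were Aadac (log2 difference -1.07), Ces1d (-0.88) and Ces2c (-0.34), and Ces1e (-0.89) joined them at 48 h, when Ces1d stood at -2.56, Aadac at -1.77 and Ces2c at -0.55.

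**Figure D2:**
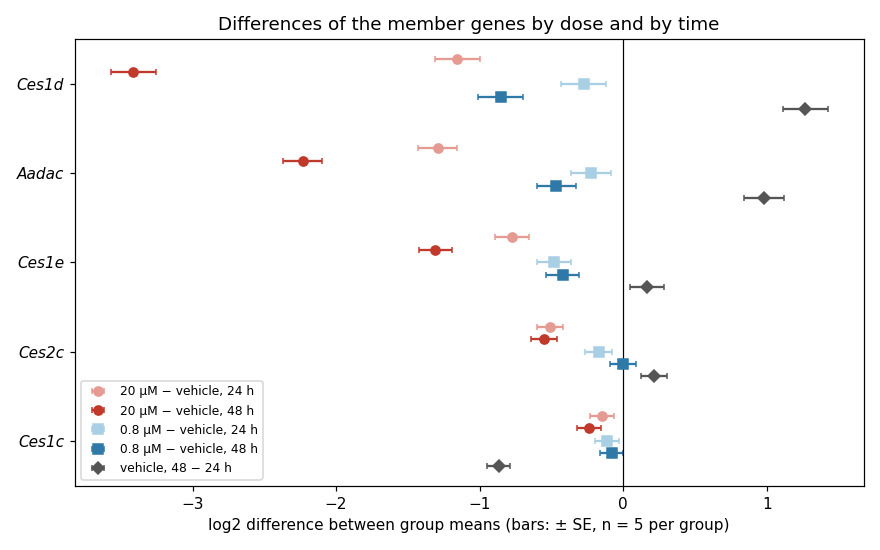
Log2 difference between group means (x axis, bars ± SE, n = 5 per group) for each member gene (y axis), by dose and time. At 20 µM Ces1d runs from -1.16 at 24 h to -3.41 at 48 h, Ces2c lies at -0.51 and -0.55, and in vehicle over time Ces1d and Aadac lie to the right of 0 and Ces1c to the left.

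Between 24 and 48 h without the drug, members moved in different directions. These vehicle arrays are also those of the 20 µM comparisons with which the members were proposed. In vehicle Ces1d rose by 1.27 ± 0.16 (log2, SE) from 24 to 48 h, or 2.41-fold (limma adjusted p = 1.12e-06). Aadac rose by 0.98 ± 0.14, or 1.97-fold (limma adjusted p = 8.18e-06). For both genes all 5 arrays of 48 h were above all 5 arrays of 24 h. Ces1c fell by 0.87 ± 0.08, or 1.82-fold (limma adjusted p = 6.62e-09), and its arrays did not overlap either. Ces1e (0.16 ± 0.12, limma adjusted p = 0.474) and Ces2c (0.22 ± 0.09, limma adjusted p = 0.155) did not pass the test, and the probe set shared by Ces1f and Cesl1 rose by 0.42 ± 0.13 (limma adjusted p = 0.0324). Thus 2 of 5 members were higher and 1 lower at 48 h, where 4.65% of all probe sets were higher and 4.28% lower.

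The difference between 20 µM and vehicle was larger at 48 h than at 24 h for Ces1d, by -2.26 ± 0.22 (log2, SE), and for Aadac, by -0.94 ± 0.19. These 2 of 5 members were past the threshold for this term, and so were 1.63% of all probe sets on the lower side. The groups behind it moved unlike each other. Aadac had nearly the same mean at 20 µM at both times (10.16 and 10.20), while its vehicle mean rose. Ces1d stood at 11.17 and 10.18 at 20 µM, with no overlap of arrays, while its vehicle mean rose. For Ces1e the term was -0.53 ± 0.17 and not past the threshold, and for Ces2c and Ces1c it was -0.04 and -0.09.

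**Figure D3:**
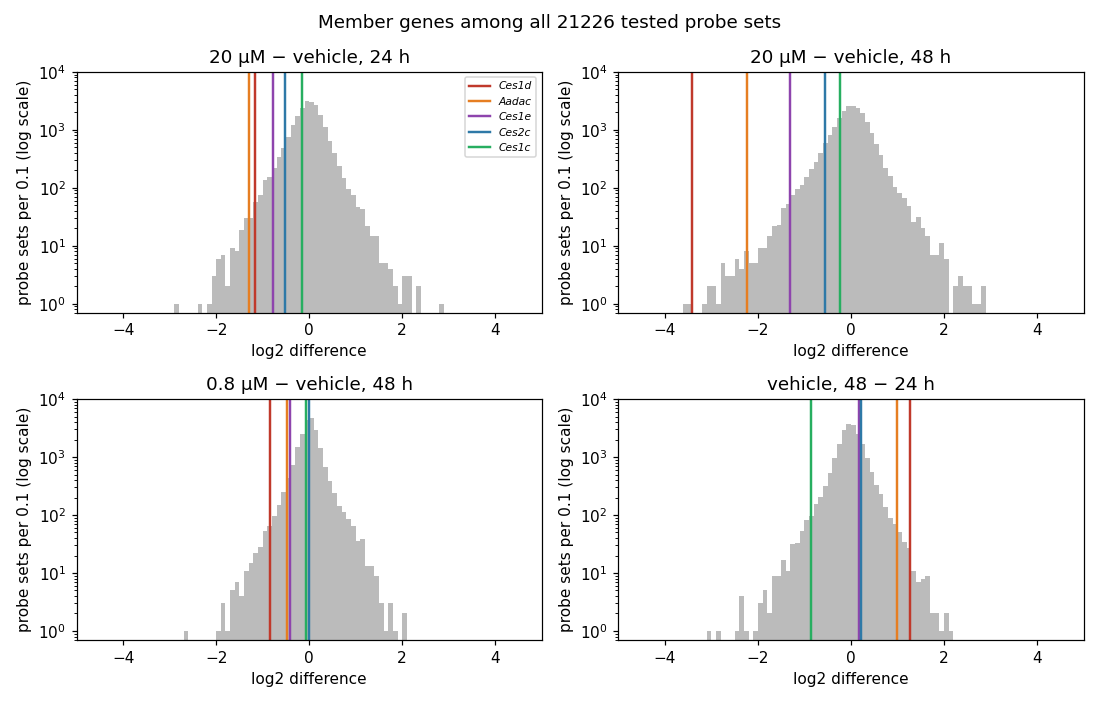
Number of probe sets (y axis, log scale) by log2 difference (x axis, bins of 0.1) over all 21226 tested probe sets, in 4 comparisons, with a coloured line at each member gene. At 20 µM and 48 h Ces1d (-3.41) lies at the lower edge of all probe sets and Ces1c (-0.24) within their bulk.

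Across the 6 group means, each gene centred on its own mean, the members did not share 1 course. The root mean square difference between members was smallest for Ces1e and Ces2c (0.27 log2 units), was 0.38 for Ces1d and Aadac, and was largest for the neighbours Ces1c and Ces1d (1.17). Of 11363 named genes, the 3 nearest to Ces1d by that measure were Akr1c1, an aldo-keto reductase (0.15), Cyp4a1, a fatty acid omega-hydroxylase (0.20), and Cyp7a1, which starts bile acid synthesis from cholesterol (0.26). Their differences at 20 µM and 48 h were -3.01, -2.93 and -2.77. Cyp7a1 was also among the 3 nearest to Aadac (0.21), after Asb5 (0.11) and the glutathione transferase Gstm7 (0.17). Nearest to Ces1e were Cutal (0.07), the chloride channel gene Clcn2 (0.09) and the peroxisomal membrane gene Pxmp2 (0.09).

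Ces1c had other neighbours in its course: 6330403K07Rikl (0.08), the complement chain C1qc (0.09), which macrophages make, and the apolipoprotein Apoa2 (0.09). In vehicle from 24 to 48 h these stood at -0.75, -0.68 and -0.91 (log2). Ces2c was compared with none, because its group means spanned only 0.72 log2 units, under the span of 1 set for this comparison. All of these distances rest on 6 means over the same 30 arrays and are descriptions.

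**Figure D4:**
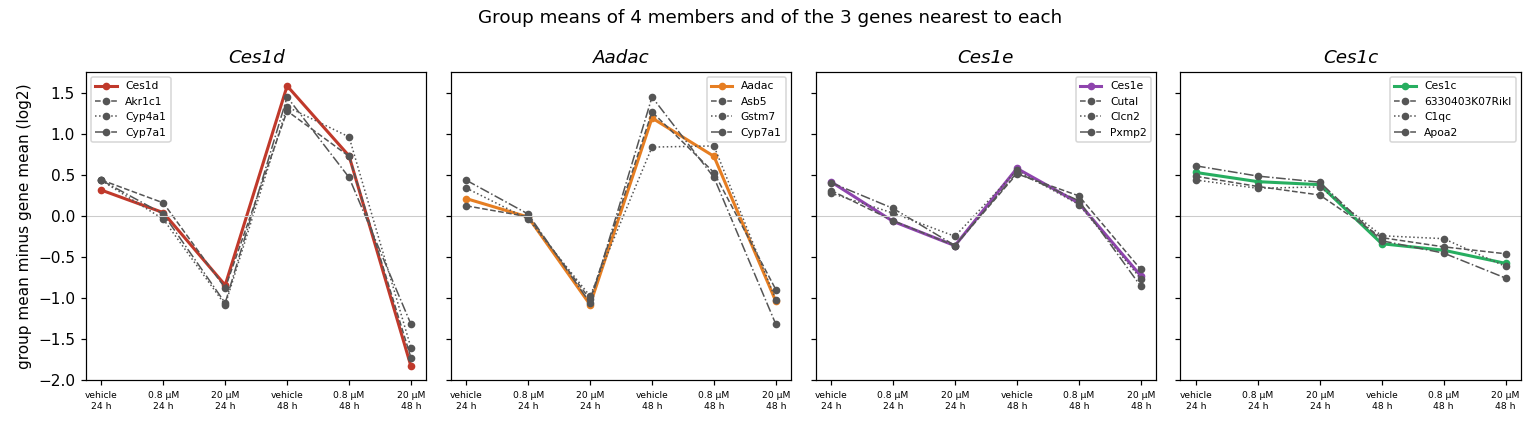
Group means minus the gene's own mean over the groups (y axis, log2) by dose and time (x axis), for 4 members in colour and the 3 genes nearest to each in grey. Ces1d, Aadac and Ces1e peak in vehicle at 48 h, as do all genes nearest to them but Gstm7. Ces1c steps down from 24 to 48 h at every dose.

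Other hydrolases for esters, thioesters, amides and epoxides were counted on 1 probe set per gene, over 11503 named genes. Of 41 listed, 31 were tested, and at 20 µM 10 were lower and 2 higher at 24 h, and 11 lower and 3 higher at 48 h. Over all named genes 9.93% were lower and 12.3% higher at 24 h, and 14.2% lower and 19.3% higher at 48 h. Their median log2 difference was -0.16 and -0.14, against 0.01 and 0.04 for all named genes. The 4 with the largest differences at 48 h were Acot4, an acyl-CoA thioesterase (-1.33), Afmid, a formamidase of tryptophan breakdown (-1.10), Ephx2, the soluble epoxide hydrolase (-1.05), and Acot12, an acetyl-CoA hydrolase (-0.95). Those higher, named after their values were seen, were the cholesteryl ester hydrolase Nceh1 (0.55 at 24 h and 0.45 at 48 h), the aminoacylase Acy1 (0.16 and 0.19) and, at 48 h, the sialic acid esterase Siae (0.47). At 0.8 µM and 48 h 1 of the 31 passed the test, Ephx2 (-0.24 ± 0.05 SE, limma adjusted p = 0.0134). Over all named genes 1.42% were lower and 1.16% higher in that comparison. Its vehicle arrays are also those of the 20 µM comparison, and the list was chosen with earlier results known. The test is thus not independent of that choice.

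Of 13 transcription factors and related genes that textbooks name for these enzymes or for liver drug metabolism, 12 were tested. At 20 µM 4 were lower and 1 higher at 24 h, and 5 lower and 1 higher at 48 h, with medians of -0.11 and -0.22. Of all named genes 9.93% were lower and 12.3% higher at 24 h, and 14.2% lower and 19.3% higher at 48 h. Nr1i3, the receptor CAR, stood at -0.73 and -1.20 (log2, 24 and 48 h), Cebpa, a C/EBP factor of hepatocytes, at -0.77 and -1.13, and Nr1h4, the bile acid receptor FXR, at -0.53 and -0.57. Outside the naming rule, Nr1i2, the receptor PXR, stood at -0.36 and -0.27, and the gene that was higher at both times was Nfe2l2, the factor NRF2 (0.50 and 0.31). Onecut1, the hepatocyte factor HNF6, stood at -0.54 at 48 h and at -0.27 at 24 h, where it was not past the threshold. At 0.8 µM and 48 h Nr1i3 (-0.43 ± 0.08 SE, limma adjusted p = 0.00178) and Cebpa (-0.41 ± 0.11, limma adjusted p = 0.0497) were lower than vehicle. These were 2 of the 12, against the same 1.42% of all named genes, and Cebpa lay only just under the threshold. The vehicle arrays are also those of the 20 µM comparison, and the list was chosen with earlier results known. These 2 tests are thus not independent of that choice, and the count is a description. Whether these levels bear on the members was not tested.

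Of 13 genes for folding and retention in the endoplasmic reticulum, where most members reside, all 13 were tested. At 20 µM 4 were lower and 1 higher at 24 h, and 6 lower and 2 higher at 48 h, with medians of -0.17 and -0.18. Of all named genes 9.93% were lower and 12.3% higher at 24 h, and 14.2% lower and 19.3% higher at 48 h. At 48 h the chaperone Calr stood at -0.78, the disulfide isomerase Pdia4 at -0.42 and the glucosidase II subunits Prkcsh and Ganab at 0.39 and -0.34. The 2 subunits of that enzyme thus lay on opposite sides of 0. The other gene that was higher at 48 h was the retention receptor Kdelr1 (0.18). At 24 h none of these 5 was past the threshold: the 4 lower genes, outside the naming rule, were P4hb (-0.28), Pdia3 (-0.24), Kdelr2 (-0.19) and Pdia6 (-0.18), and the higher one was Canx (0.15).

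Among markers of other liver cells, the summed linear signal of those of Kupffer cells and leukocytes (10 of 12 listed genes) was lower at 20 µM. It was 16280 to 17910 in vehicle and 14010 to 15210 at 20 µM at 24 h, and 13550 to 16000 and 10340 to 12170 at 48 h, without overlap at either time. At 0.8 µM it overlapped vehicle at both times (14870 to 17460 and 13360 to 14990). Without Lyz2, the lysozyme gene, the sum of the other 9 overlapped between vehicle and 20 µM at both times (6950 to 9408 and 7561 to 8504 at 24 h, 4740 to 6197 and 5283 to 6453 at 48 h). At 20 µM 1 of the 10 was lower at 24 h (Lyz2, -0.40), and at 48 h 3 were lower (Lyz2, C1qa and Cd5l) and 1 higher (Cd68, 1.44). At that dose 9.93% of all named genes were lower and 12.3% higher at 24 h, and 14.2% lower and 19.3% higher at 48 h. In vehicle 4 of the 10 were lower at 48 than at 24 h (Cd68, C1qb, C1qc and Clec4f), against 5.77% of all named genes. The part of these cells in the members' differences was not tested. Of 8 stellate cell markers 0 were past the threshold in limma at 20 µM, with 1 at an unadjusted p under 0.05 at 24 h (Acta2) and 0 at 48 h. Of 5 endothelial markers 0 were past it, with 1 at an unadjusted p under 0.05 at each time (Kdr). Lrat and Vwf, which help define those cells, were below the signal filter. Of the 2 cholangiocyte markers tested, Krt19 was lower at 24 h (-1.28) and not past the threshold at 48 h (-0.29). The other, Epcam, was past it at neither time (0.08 and 0.04). Krt7, Spp1 and Cftr were below the filter.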

How the data were processed

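RNA of 30 wells was labelled as biotinylated cRNA and measured on 1 rat oligonucleotide array each. The deposited values are linear intensity values (signal) per probe set, made by the authors with MAS5, per the submitters' processing notes; its version is not given in the sources used here. From the values, each array was scaled to a trimmed mean of 1499.9 between its 2nd and 98th percentiles, so a value is relative to its own array. Of 31099 probe sets, 57 were controls.

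Signals were floored at 16 and log2 transformed without further normalization. Probe sets above the 40th percentile of their array on at least 5 arrays were kept (21226). Names came from the platform annotation (20826 probe sets with 1 symbol, 436 with several, 9780 not listed), and updating symbols by Entrez identifier added 0 members and removed 0. The limma package (3.58.1, R 4.3.3) fitted the 6 group means jointly to the 30 arrays, with trended eBayes variances. Within a comparison, p-values were adjusted by Benjamini-Hochberg across every kept probe set, at a threshold of 0.05. The code of the fit was run on simulated data with independent normal noise. Those data held no shared array effects, so the run checks the code and not the model. Lists were counted on the brightest kept probe set of each gene. No 2 arrays held identical values.

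The members and lists were chosen with earlier results of these data known. No exact p is printed for any comparison that uses the 20 µM arrays, since the members were proposed from them. Counts and calls past a threshold in those comparisons are descriptions. Named genes are the members, the 3 genes nearest to each member whose group means span over 1 log2 unit, and up to 4 genes of each list with the largest difference at 20 µM and 48 h among those past the threshold. Markers are named where a count of a few is given or where they were below the filter. Promoters and gene order came from RefSeq on GRCr8, and windows were aligned globally with Biopython 1.88. Protein sequences were not used here. Alternatives covered the floor, filter, normalization, centring, spread model, arrays in the fit, array order, probe set summary, threshold and leaving out each array.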

Additional observations from a re-analysis of the deposited data

Results flagged for a closer look

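In groups of 5, a sample was looked at again where its gap to the nearest other took an unusually large share of the group's range by Dixon's test. Of 36 groups of member arrays, 3 met this, and chance gives about 1 in 20. Ces2c in vehicle at 24 h was 13.04 (log2 signal) in replicate 5, against 13.41 to 13.55 in the other 4. The second Ces1c probe set, below the signal filter on all arrays, was 5.02 in vehicle replicate 2 at 24 h and 5.64 in replicate 4 of 0.8 µM at 48 h. The effect of 20 µM differed between the times for Ces1d, by -2.26 (log2, 48 minus 24 h), and for Aadac, by -0.94, each by the interaction term of the limma fit. The members were proposed with the 20 µM arrays known, so both are descriptions.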

How the results depend on the processing

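Of the 40 log2 differences of members, none changed direction past the threshold under the alternatives, and 8 calls of Ces1e and Aadac at 0.8 µM were gained. The count of members past the threshold at 0.8 µM and 24 h went from 0 to 1 (Ces1e) with the 60th percentile filter, with 1 probe set per gene, and over single left-out arrays ranged from 0 to 1 (1 without 0.8 µM replicate 1). At 0.8 µM and 48 h it went from 1 to 3 with that filter and with only the compared groups in the fit, and to 2 with quantile normalization or 1 probe set per gene. Ces1d stayed past the threshold there under all alternatives (adjusted p 0.00122 to 0.00884). At an adjusted p under 0.01 the folding genes past it at 20 µM and 24 h went from 5 to 3. Leaving out single arrays lost the Ces1c call at 20 µM and 48 h in 4 of 10 cases, with log2 differences of -0.27 to -0.16 over all 10. It also gained the difference of the 20 µM effects for Ces1e without 20 µM replicate 2 at 48 h (-0.61). The cause was not tested in any of these cases. MAS5 scaling makes values relative to each array. Each group has 5 arrays, 1 probe set stands for each member, and protein was not measured.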
